A study of Mus musculus with 6 samples.

Results

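The E2F and pocket protein family was followed here as 10 genes, E2f1 to E2f8, Rbl1 and Rbl2, taken from the count table by gene symbol, out of 50686 genes in all. The data are RNA sequencing counts of natural killer (NK) cells, lymphocytes of innate immunity that kill tumour and virus-infected cells. They were sorted from mouse spleen as NK1.1-positive cells without T cell receptor beta chain. The WT group is 3 libraries from healthy C57BL/6J mice labelled wild type. The Eumyc group is 3 libraries from mice of the same strain that had received Eumyc lymphoma, a transplanted B lineage tumour driven by Myc, intravenously and were harvested at day 14. The labels give no genotype for the Eumyc hosts, and they do not tie libraries to individual mice, so p-values here reflect the spread between libraries, which may be technical. All spleens were depleted of B cells and enriched with CD49b beads, but the sort of the Eumyc samples also took the cells that the beads had not bound. Every difference below therefore carries both this step and the tumour, which cannot be told apart.

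E2F proteins are transcription factors that switch on the genes a cell needs to copy its DNA. E2F1, E2F2 and E2F3 bind DNA together with a DP partner and activate these genes at the start of S phase, while E2F4 and E2F5 mostly work with the pocket proteins p107 (Rbl1) and p130 (Rbl2) to hold the same genes silent in resting cells. E2F6 represses through Polycomb proteins without a pocket protein, and E2F7 and E2F8 bind without a DP partner and turn E2F targets down again in late S phase and G2. Resting lymphocytes are a textbook setting of repression by E2F4 and p130, and several E2F genes are themselves E2F targets.

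Promoter sequences are shown for the members whose RefSeq window holds an E2F site. A window runs from 250 bases before to 50 bases after a start site (build GRCm38.p6). RefSeq windows matched 8 of the 10 members, with 10 windows, and none was matched for E2f4 and E2f5. The E2F site was searched on both strands as 4 letter strings, TTTCGCGC, TTTGGCGC, TTTCCCGC and TTTGCCGC, and the cell cycle homology region (CHR), an element of late cell cycle promoters, as TTTGAA. These strings did not overlap each other in any member's window. Capitals mark both kinds of match, and positions count from the start site as 0.

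E2f2, chr4:136172024-136172323, plus strand: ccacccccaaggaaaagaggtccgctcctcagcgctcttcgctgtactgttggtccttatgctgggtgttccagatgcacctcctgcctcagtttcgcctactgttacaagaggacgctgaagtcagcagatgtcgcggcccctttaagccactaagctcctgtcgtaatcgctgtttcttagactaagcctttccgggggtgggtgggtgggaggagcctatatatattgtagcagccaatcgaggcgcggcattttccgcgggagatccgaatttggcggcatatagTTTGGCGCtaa
E2f3, chr13:29986014-29986313, minus strand: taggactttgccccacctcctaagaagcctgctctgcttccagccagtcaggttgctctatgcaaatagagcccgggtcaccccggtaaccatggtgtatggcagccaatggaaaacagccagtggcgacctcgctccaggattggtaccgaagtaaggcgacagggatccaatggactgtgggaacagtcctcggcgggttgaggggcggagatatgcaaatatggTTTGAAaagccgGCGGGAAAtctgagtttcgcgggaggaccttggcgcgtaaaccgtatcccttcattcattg
E2f7, chr10:110745189-110745488, plus strand: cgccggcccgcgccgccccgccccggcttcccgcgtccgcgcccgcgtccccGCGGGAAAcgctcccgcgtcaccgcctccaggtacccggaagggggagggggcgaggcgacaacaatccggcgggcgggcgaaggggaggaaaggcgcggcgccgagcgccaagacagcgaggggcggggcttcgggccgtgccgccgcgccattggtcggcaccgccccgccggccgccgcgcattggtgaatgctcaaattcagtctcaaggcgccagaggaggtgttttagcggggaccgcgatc
Rbl1, chr2:157204485-157204784, minus strand: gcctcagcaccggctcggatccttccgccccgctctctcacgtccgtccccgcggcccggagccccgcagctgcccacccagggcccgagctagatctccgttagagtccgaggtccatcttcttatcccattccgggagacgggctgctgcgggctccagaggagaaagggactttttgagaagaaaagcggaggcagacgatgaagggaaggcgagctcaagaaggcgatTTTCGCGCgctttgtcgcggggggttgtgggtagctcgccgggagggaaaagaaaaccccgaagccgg

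An E2F string was present in windows of 4 of the 8 matched members, and 2.60% of the 27025 genes in the RefSeq table had at least 1 such window. The match began at 39 in E2f2, at -11 in E2f3, at -198 in E2f7 and at -18 in Rbl1. In E2f3 the TTTGAA string began at -23, just ahead of the E2F string. TTTGAA was found in windows of 4 members, E2f2 (its other window), E2f3, E2f8 and Rbl2, and in 20.2% of all genes. The MYC E-box CACGTG was found in 1 member, E2f3 (its other window), and in 8.09% of all genes. No E2F string lay in the windows of E2f1, E2f6, E2f8 and Rbl2. The E2f1 window starts from a site 466 bases inside the Ensembl gene, so it does not cover the sequence ahead of the Ensembl start. Likewise, the other windows of E2f2 and E2f3 start from sites 8388 and 1277 bases inside their Ensembl genes. The E2f2 and E2f3 windows with an E2F string start from sites 120 and 395 bases ahead of the Ensembl start. A match is a string of letters and not a measured binding site, and its link to expression was not tested. E2f1, E2f6 and E2f8 rose in Eumyc without an E2F string in their windows.

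The 6 libraries held 16407611 to 36534191 gene counts in WT and 44456157 to 66615602 in Eumyc. Values are CPM (counts scaled to a common library size) after TMM scaling, a correction for library composition, and intervals from counts cover counting error only because PCR copies were not marked. The test was edgeR's quasi-likelihood test over 15458 genes, of which 48.8% passed an adjusted p of 0.05 (Benjamini-Hochberg), 25.7% higher and 23.1% lower in Eumyc. All pairs of libraries differed by more than sampling noise, with a chi-square per degree of freedom of at least 8.01. WT 3, the library with the fewest counts at 16407611, stood apart from the other WT libraries in cell cycle genes. In bulk RNA a larger share of cycling cells and more RNA of a gene per cell cannot be told apart.

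Of the 10 members, 7 rose in Eumyc (E2f1, E2f2, E2f3, E2f6, E2f7, E2f8 and Rbl1), 1 fell (E2f5) and 2 did not pass the test (E2f4 and Rbl2), beside 25.7% of all tested genes higher and 23.1% lower. All 10 members passed the filter on low counts. The rise was 2.51-fold to 4.89-fold for the 3 activators, 9.77-fold and 11.4-fold for E2f7 and E2f8, and 1.60-fold for both E2f6 and Rbl1. The 2 groups were fully apart in CPM for 9 of the 10, where 60.2% of all tested genes were. The counts of 7 and 1 were the same under all 15 alternatives, which included leaving out each library.

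**Figure D1:**
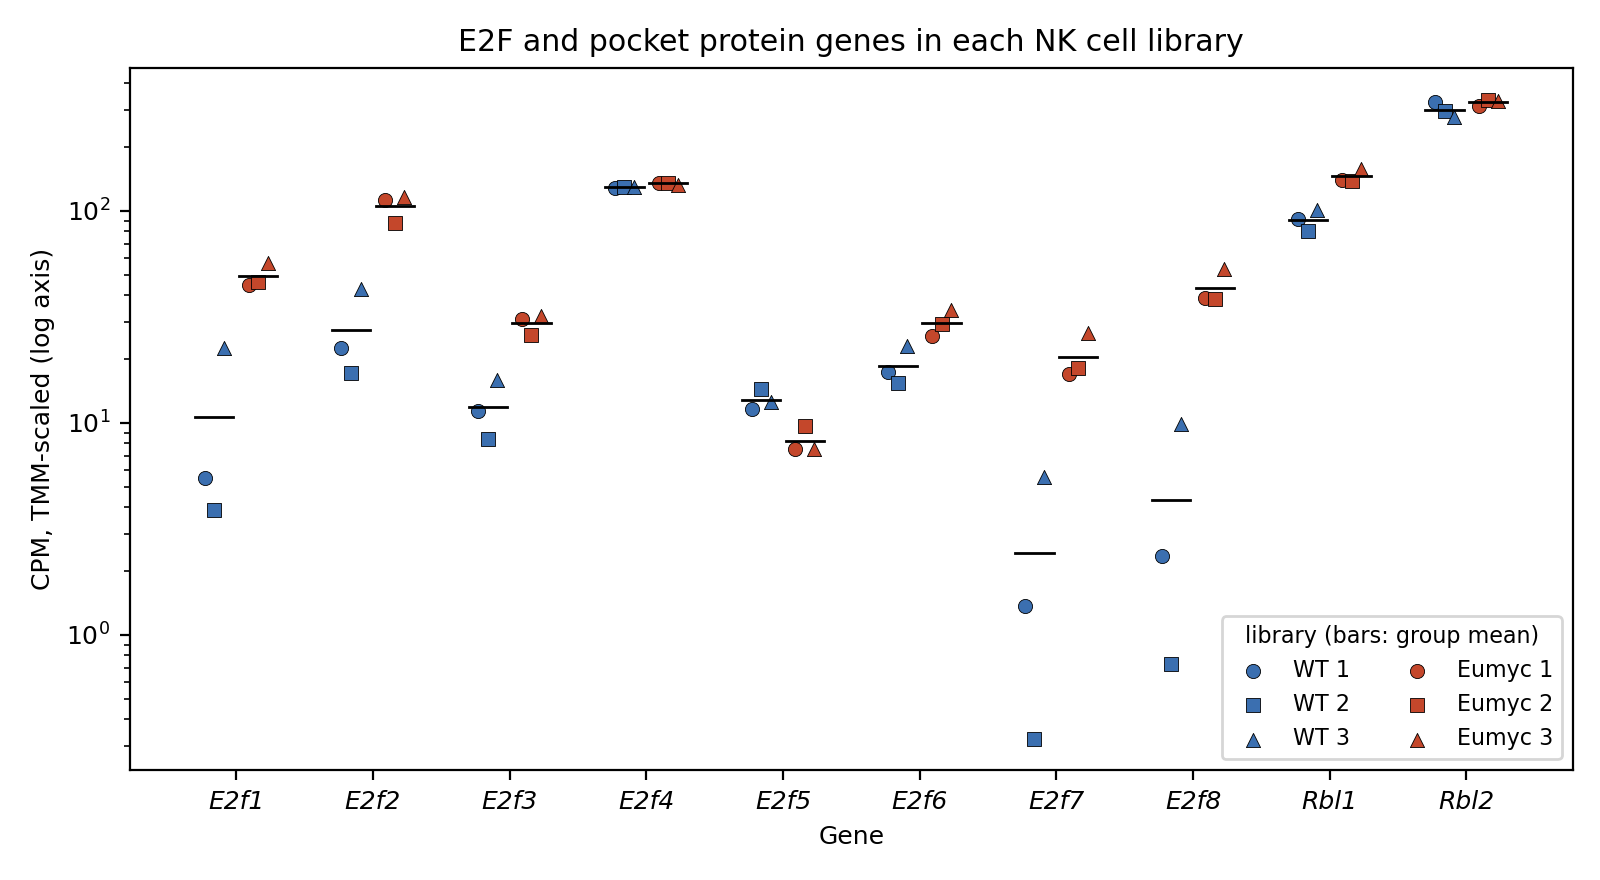
Expression of the 10 members in each library, in TMM-scaled CPM on a log axis, with WT in blue, Eumyc in red, a symbol for each replicate number and a bar for each group mean. E2f4 and Rbl2 lie level across groups, E2f7 and E2f8 are furthest apart, and WT 3 (blue triangles) is the highest WT library for E2f1, E2f2, E2f3, E2f6, E2f7, E2f8 and Rbl1.

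Among the activators, E2f1 (ENSMUSG00000027490, chromosome 2 from 154559407 to 154569892) stood at 5.52, 3.89 and 22.5 CPM in WT 1, 2 and 3, against 44.5, 46.4 and 56.5 CPM in the Eumyc libraries. WT 3 held more E2f1 than the other WT libraries and still lay below every Eumyc library. The means were 10.6 ± 10.3 and 49.1 ± 6.44 CPM (SD, n = 3 each), and E2f1 rose by 2.29 ± 0.55 (SE) on the log2 scale (edgeR adjusted p = 0.00939). Without WT 3 the log2 fold change was 3.40.

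E2f2 (ENSMUSG00000018983, chromosome 4 from 136172394 to 136196057) was the most abundant activator in every library, per kilobase of exon as in CPM. It stood at 22.5, 17.2 and 42.8 CPM in WT, against 112.8, 87.6 and 116 CPM in Eumyc, with no overlap. Its log2 fold change was 1.97 ± 0.29 (SE, edgeR adjusted p = 0.00112), and 2.42 without WT 3. E2f3 (ENSMUSG00000016477, chromosome 13 from 29906575 to 29985668) changed least of the activators. Its libraries stood at 11.4, 8.36 and 15.9 CPM in WT, against 30.7, 25.9 and 31.8 CPM in Eumyc. The groups were again apart, with a log2 fold change of 1.33 ± 0.21 (SE, edgeR adjusted p = 0.00138).

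The repressor gene E2f4 (ENSMUSG00000014859, chromosome 8 from 105297663 to 105305370) was almost level. Its 6 libraries stood at 128, 129 and 129.8 CPM in WT, against 135, 136 and 133 CPM in Eumyc, and its log2 fold change was 0.06 ± 0.05 (SE, edgeR adjusted p = 0.311). The Eumyc libraries were all a little above the WT libraries, but the difference did not pass the test, and WT 3 did not stand apart. E2f5 (ENSMUSG00000027552, chromosome 3 from 14578641 to 14606309), the other partner of p130, was the only member that fell. It stood at 11.7, 14.4 and 12.5 CPM in WT, against 7.50, 9.62 and 7.55 CPM in Eumyc, with every Eumyc library below every WT library. Its log2 fold change was -0.65 ± 0.15 (SE, edgeR adjusted p = 0.00699), or a fitted ratio of 0.639.

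E2f6 (ENSMUSG00000057469, chromosome 12 from 16810965 to 16826743), the repressor that works with Polycomb, rose. Its libraries stood at 17.4, 15.4 and 23.1 CPM in WT, against 25.7, 29.1 and 34.1 CPM in Eumyc. The highest WT library, WT 3, was close to the lowest Eumyc library. The log2 fold change was 0.68 ± 0.16 (SE, edgeR adjusted p = 0.00923).

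The late, atypical repressors had the lowest WT levels, per kilobase of exon as in CPM, and the largest fold changes of the family. E2f7 (ENSMUSG00000020185, chromosome 10 from 110745439 to 110787384) stood at 1.37, 0.325 and 5.57 CPM in WT, against 17.0, 18.1 and 26.5 CPM in Eumyc. The WT values rest on 38, 12 and 93 counts, and the exact Poisson 95% interval of WT 2 ran from 0.168 to 0.567 CPM, so WT 2 and WT 3 differed by more than counting error. E2f7 rose by 3.29 ± 0.70 (SE) on the log2 scale (edgeR adjusted p = 0.00551), and by 4.69 without WT 3.

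E2f8 (ENSMUSG00000046179, chromosome 7 from 48866429 to 48881596) followed the same pattern. It stood at 2.35, 0.730 and 9.88 CPM in WT, against 39.0, 38.2 and 52.9 CPM in Eumyc. WT 3 was again the highest WT library and far below the lowest Eumyc library. The log2 fold change was 3.51 ± 0.68 (SE, edgeR adjusted p = 0.00355), which ranked 361 among 15458 genes from the highest, and it was 4.89 without WT 3. The noncoding gene Gm2788 overlaps E2f8 on the opposite strand over 3639 bases. It held 97 to 260 counts in WT, where E2f8 held 27 to 165, and 107 to 213 counts in Eumyc, where E2f8 held 1690 to 3518. Reads of these genes cannot be told apart with certainty, because the sources used here do not give the strand setting.

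The pocket protein genes differed from each other. Rbl1 (ENSMUSG00000027641, chromosome 2 from 157145893 to 157204534), which encodes p107 and is an E2F target in textbook accounts, stood at 91.6, 80.3 and 101 CPM in WT, against 140, 138 and 158 CPM in Eumyc. The groups did not overlap, and Rbl1 rose by 0.68 ± 0.09 (SE) on the log2 scale (edgeR adjusted p = 0.000707). Rbl2 (ENSMUSG00000031666, chromosome 8 from 91070057 to 91123844), which encodes p130, the pocket protein of resting cells, stood at 326, 297 and 278 CPM in WT, against 311, 335 and 331 CPM in Eumyc. The groups overlapped, and the log2 fold change was 0.12 ± 0.07 (SE, edgeR adjusted p = 0.203). Per kilobase of exon, the ratio of Rbl1 to Rbl2 was 0.354, 0.341 and 0.457 in WT and 0.567, 0.520 and 0.600 in Eumyc, so the balance was tilted towards Rbl1 in all 3 Eumyc libraries. The protein-coding gene Aktip overlaps Rbl2 on the opposite strand over 12061 bases, and it held 252 to 925 counts in a library where Rbl2 held 4648 to 22009.

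Set by role, the median log2 fold change was 1.97 for the activators E2f1 to E2f3 and 0.68 for the repressor and late members E2f4 to E2f8, beside -0.0050 for all tested genes. The members are not replicates, so this difference of 1.29 has no test. The second class was not uniform. E2f4, E2f5 and E2f6 had log2 fold changes from -0.65 to 0.68, whereas E2f7 and E2f8 at 3.29 and 3.51 lay above all 3 activators.

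**Figure D2:**
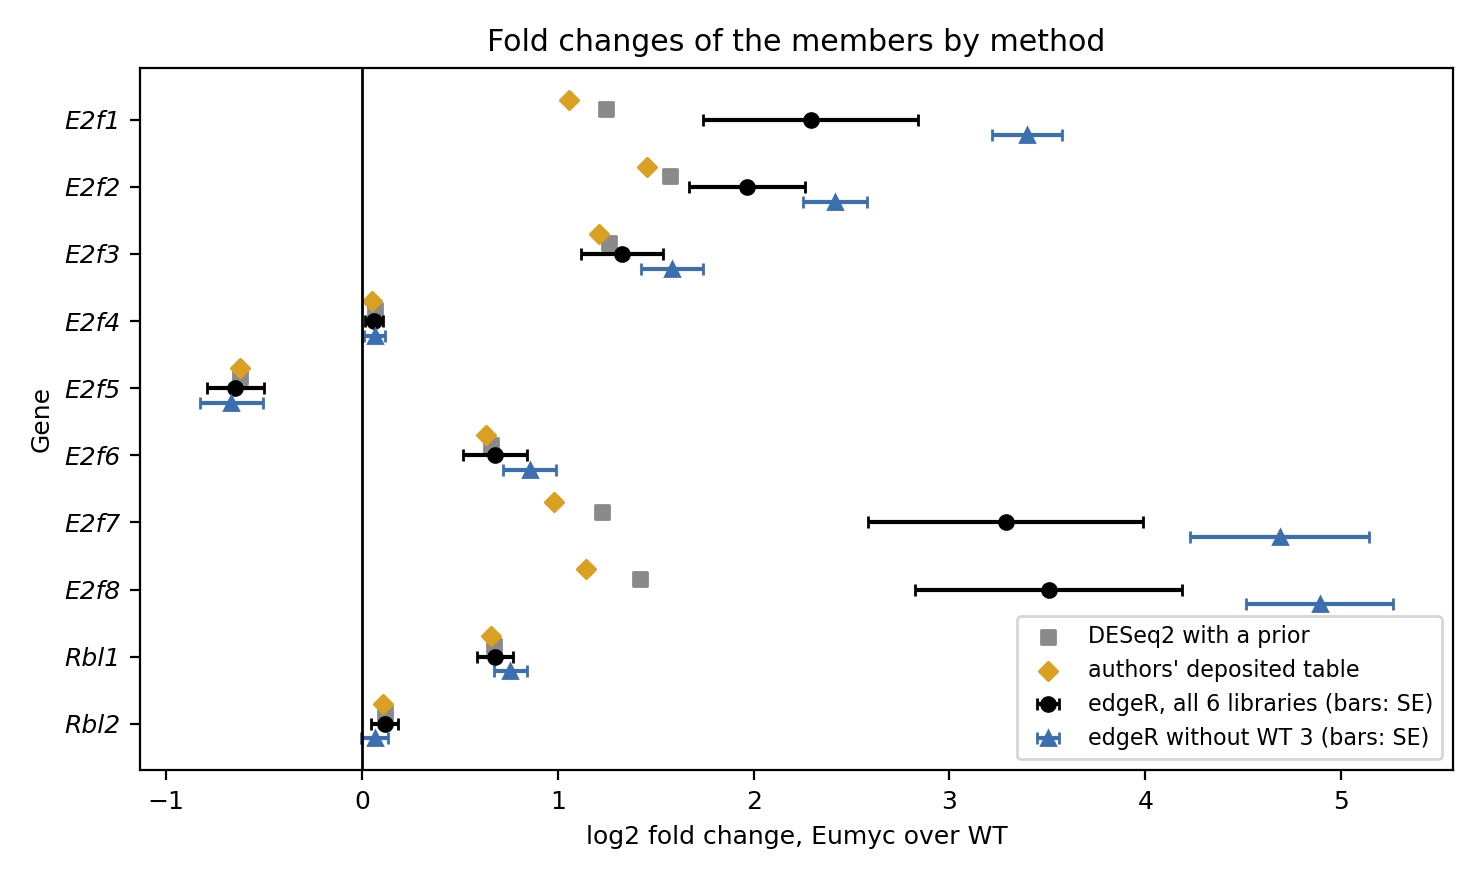
Log2 fold change of each member, Eumyc over WT, from edgeR with all 6 libraries (black) and without WT 3 (blue), both with SE bars, from DESeq2 with a prior on fold changes (grey) and from the authors' deposited table (yellow). For E2f1, E2f7 and E2f8 the methods spread over more than 2 log2 units, from 0.98 to 4.69 for E2f7, while E2f4, E2f5 and Rbl1 barely move.

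Levels of different genes were compared per kilobase of merged exons. In WT the order was led by E2f4 at 52.6 ± 0.37 CPM per kb (SD, n = 3), followed by Rbl2 at 39.8 ± 3.21 and Rbl1 at 15.2 ± 1.72, each separated from the next. From there the order ran E2f5, E2f2, E2f1, E2f6, E2f3, E2f8 and E2f7, and every neighbouring pair overlapped between libraries. E2f7 closed it at 0.269 ± 0.308 CPM per kb.

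In Eumyc, E2f4 at 54.9 ± 0.575 and Rbl2 at 43.1 ± 1.68 CPM per kb (SD, n = 3) still came first. Rbl1 at 24.2 ± 1.82 and E2f2 at 21.6 ± 3.21 overlapped each other, and E2f1 at 15.6 ± 2.04 and E2f8 at 7.97 ± 1.52 followed, each apart from its neighbours. E2f3, E2f6 and E2f5, at 5.43, 5.23 and 4.62 CPM per kb, overlapped as neighbours, and E2f7 was last at 2.28 ± 0.58. E2f5 thus went from the fourth place in WT to the ninth, and E2f8 from the ninth to the sixth. Merged exon length overstates the length of genes with many isoforms, and it was 9009 bases for E2f7 against 5473 in its longest transcript.

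Summed over E2f1 to E2f8, E2F transcripts stood at 70.9, 70.1 and 85.3 CPM per kb in WT and at 116, 112 and 125 in Eumyc. The sum of E2f4, E2f5 and E2f6 was nearly the same in all libraries, at 61.8 to 64.0 in WT and 63.9 to 65.9 in Eumyc. The activators made up 11.9%, 8.98% and 22.1% of the total in WT and 37.0%, 33.3% and 38.1% in Eumyc. The share of E2f7 and E2f8 was 0.822%, 0.243% and 2.85% in WT and 7.82%, 8.04% and 10.2% in Eumyc. WT 3 lay between the other WT libraries and the Eumyc libraries in both shares. Without WT 3 the mean share of E2f7 and E2f8 in WT was 0.533% in place of 1.31%, and that of the activators was 10.5% in place of 14.3%.

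**Figure D3:**
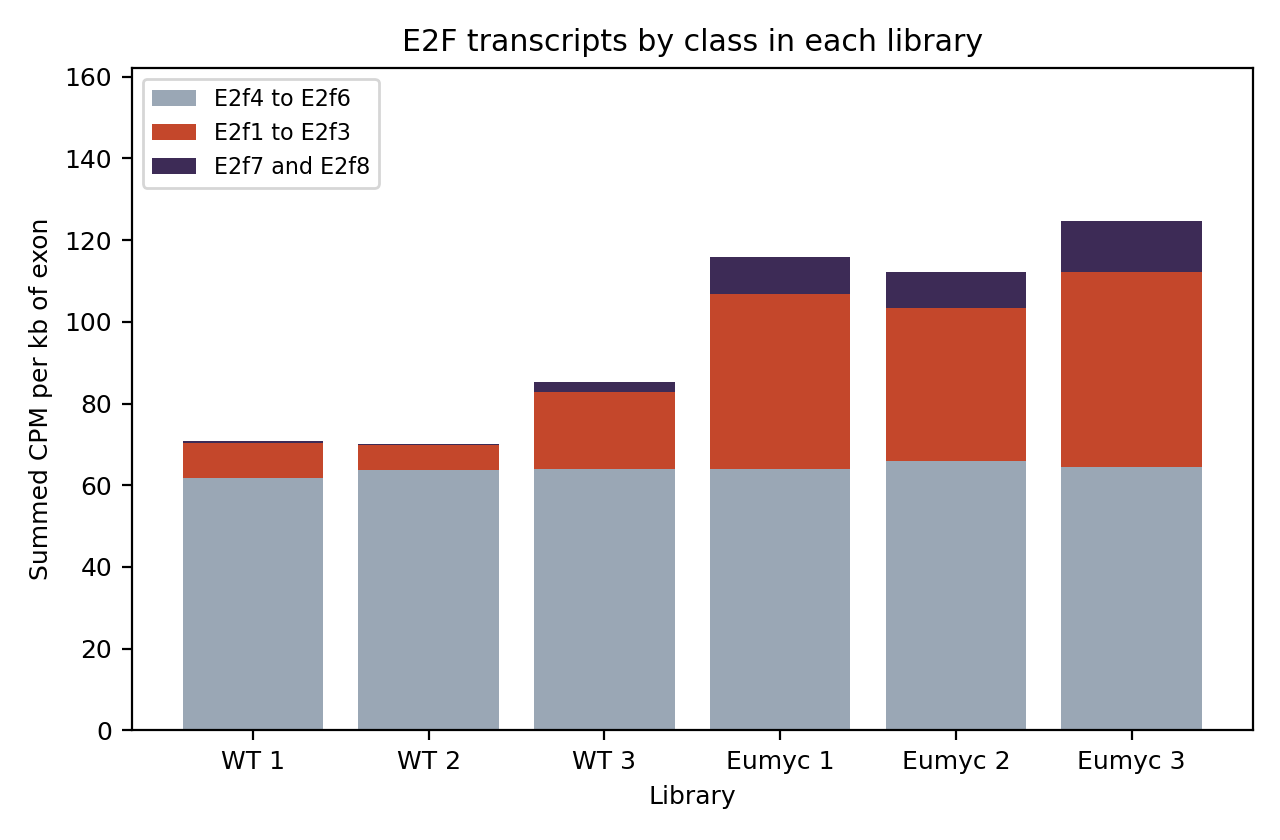
E2F transcripts in each library, as stacked bars of summed CPM per kb of merged exon for E2f4 to E2f6 (grey), E2f1 to E2f3 (red) and E2f7 with E2f8 (purple). The grey part stays between 61.8 and 65.9 in all 6 libraries, and the red and purple parts are larger in each Eumyc library than in any WT library.

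The difference of WT 3 from the mean of WT 1 and 2 was 2.47 log2 units for E2f8, 2.29 for E2f7, 2.16 for E2f1, 1.10 for E2f2, 0.68 for E2f3, 0.48 for E2f6 and 0.23 for Rbl1. It was 0.01 for E2f4, -0.05 for E2f5 and -0.16 for Rbl2. The members that were high in WT 3 are those that rose in Eumyc, but both differences use the WT libraries and are not independent. The median over all tested genes was 0.00. WT 3 did not stand above the other WT libraries in its summed B cell markers (19.1 against 16.7 and 19.9 CPM) or erythroid markers (14.9 against 33.8 and 21.9 CPM). It was the highest WT library in its summed neutrophil markers (5.85 against 4.03 and 3.28 CPM) and monocyte and macrophage markers (1056 against 946 and 964 CPM). By gene, however, only 2 of the 10 monocyte and macrophage markers exceeded the mean of WT 1 and 2, with a median difference of -0.37 log2 units. Their sum rests largely on Ccr2, which averaged 832 ± 66.5 CPM in WT and was 0.19 log2 units higher in WT 3. The part of these cell types in the values of WT 3 was not tested.

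The DP partner Tfdp1, which E2F1 to E2F6 need to bind DNA, rose from 56.8 ± 13.1 to 146 ± 17.4 CPM (SD, n = 3 each, edgeR adjusted p = 0.000373), and WT 3 was 0.54 log2 units above the mean of WT 1 and 2. The other partner, Tfdp2, averaged 45.4 ± 3.62 CPM in WT against 41.7 ± 5.41 CPM in Eumyc, a difference that did not pass (edgeR adjusted p = 0.383).

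Upstream of the pocket proteins, which G1 cyclins and their kinases inactivate by phosphorylation, 7 of 9 genes rose and 0 fell, with a median log2 fold change of 1.18. The E cyclins Ccne2 and Ccne1 rose by 1.77 ± 0.26 and 1.65 ± 0.20 (SE) and their kinase Cdk2 by 1.29 ± 0.18. In WT 3, 8 of the 9 genes exceeded the mean of WT 1 and 2, with a median difference of 0.57 log2 units. The D cyclins Ccnd2 and Ccnd3, the most abundant of the list, did not pass, at 616 ± 98.1 and 533 ± 81.4 CPM for Ccnd2 and 569 ± 80.0 and 519 ± 64.5 CPM for Ccnd3. Of 5 tested inhibitors of these kinases 2 rose, 1 fell and 2 did not pass. These counts were not far from the shares of all tested genes, 25.7% higher and 23.1% lower. Cdkn1b, which encodes the quiescence inhibitor p27, fell from 296 ± 41.9 to 157 ± 2.49 CPM (edgeR adjusted p = 0.000322). Cdkn2c, which encodes the CDK4 and CDK6 inhibitor p18, rose from 19.7 ± 2.73 to 78.3 ± 13.1 CPM (edgeR adjusted p = 0.000114). Cdkn2d averaged 85.0 ± 10.7 CPM in WT against 89.9 ± 6.30 CPM in Eumyc, and Cdkn1c 0.812 ± 0.605 against 0.661 ± 0.287 CPM.

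The pocket proteins repress with the MuvB complex, which later joins B-MYB and FOXM1 to activate mitotic genes. Of these 8 genes 6 rose and 0 fell, with a median of 0.48. Foxm1, Mybl2 (B-MYB) and Mybl1 rose by 2.65 ± 0.28, 2.60 ± 0.51 and 1.13 ± 0.22 (SE) on the log2 scale. The MuvB subunit genes Lin37 and Lin52 averaged 25.0 ± 1.02 and 15.5 ± 0.712 CPM in WT against 21.6 ± 0.834 and 13.6 ± 1.56 CPM in Eumyc, which did not pass. WT 3 exceeded the mean of WT 1 and 2 by 0.98 log2 units for Foxm1 and 1.87 for Mybl2. Without WT 3 the value of Mybl2 was 3.54, and Lin37 passed as lower (edgeR adjusted p = 0.0483). Among 8 corepressor genes of pocket proteins 4 rose and 2 fell, with a median of 0.13. Of all tested genes 25.7% were higher and 23.1% lower, so the lower count was near that share. The histone methyltransferase gene Suv39h1 and the histone-binding gene Rbbp7 rose by 0.86 ± 0.11 and 0.67 ± 0.09, while the scaffold genes Arid4a and Sin3b had log2 fold changes of -0.32 ± 0.08 and -0.21 ± 0.06. Sin3a averaged 132 ± 7.04 CPM in WT against 119 ± 2.98 CPM in Eumyc and did not pass, except without WT 3 (edgeR adjusted p = 0.0198). The lower count was 1 without WT 2, Eumyc 2 or Eumyc 3, where Sin3b lost its call (edgeR adjusted p = 0.0685, 0.0611 and 0.0679).

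Among 30 G1/S targets of E2F, genes of DNA replication and nucleotide supply, 29 rose and 0 fell, with a median log2 fold change of 1.69. The largest changes were those of the cyclin gene Ccna2 at 4.04 ± 0.55, Rrm2, a subunit of ribonucleotide reductase, at 3.15 ± 0.54 and the replication factor gene Mcm10 at 3.05 ± 0.60 (SE). The replication licensing gene Cdt1 did not pass, at 74.2 ± 4.53 and 81.7 ± 8.94 CPM (edgeR adjusted p = 0.214). In WT 3, 29 of the 30 genes exceeded the mean of WT 1 and 2, with a median difference of 0.80 log2 units. Without WT 3 the median of the list was 2.06, and Ccna2, Rrm2 and Mcm10 had log2 fold changes of 5.06, 4.17 and 4.29. All 24 tested G2/M targets of the pocket protein and MuvB complex rose, with a median of 3.74, and in WT 3 the median difference was 1.56 with 23 of 24 genes higher. The ubiquitin-conjugating enzyme gene Ube2c, the mitotic cyclin gene Ccnb1 and the spindle gene Hmmr led this list at 4.84, 4.69 and 4.63, and at 5.44, 5.33 and 5.58 without WT 3, where the median was 4.60. Against the list medians of 1.69 and 3.74, the log2 fold changes of E2f7 and E2f8 were 3.29 and 3.51.

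Genes that remove E2F proteins or regulate the anaphase-promoting complex rose in 5 of 6 cases, with a median of 1.46. Cks1b, a cofactor of the SKP2 ubiquitin ligase, and Ccnf, which encodes the ubiquitin ligase subunit cyclin F, rose by 3.50 ± 0.39 and 3.47 ± 0.46 (SE), the latter by 4.24 without WT 3. Fbxo5, an inhibitor of the anaphase-promoting complex, rose by 2.02 ± 0.22, and the scaffold gene Cul1 was level at 144 ± 1.56 and 145 ± 3.63 CPM. All 6 genes were higher in WT 3 than the mean of WT 1 and 2, with a median difference of 0.59 log2 units. Of 5 apoptosis genes that E2F1 is known to activate, 3 rose and 1 fell, with a median of 0.70. Pmaip1 (NOXA) and the apoptosome gene Apaf1 rose by 1.74 ± 0.17 and 0.70 ± 0.05, and Bbc3 (PUMA) fell from 53.9 ± 4.58 to 36.1 ± 5.29 CPM. Bcl2l11 (BIM) did not pass, with a log2 fold change of 0.15 ± 0.09, and passed as higher without Eumyc 1 (edgeR adjusted p = 0.0281).

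Of the 10 Polycomb partners of E2F6, 2 were higher and 3 lower, with a median of 0.03. These counts were not far from the shares of all tested genes, 25.7% higher and 23.1% lower. The lower count ranged from 2 to 4 under the alternatives. Cbx3 and Wdr5 rose by 0.64 ± 0.11 and 0.36 ± 0.06 (SE), Rybp and Mga had log2 fold changes of -0.45 ± 0.09 and -0.40 ± 0.10, and Max was level at 120 ± 5.22 and 119 ± 0.774 CPM. Rnf2, a catalytic subunit gene, averaged 71.0 ± 5.41 against 63.3 ± 0.922 CPM and did not pass, except without WT 2 (edgeR adjusted p = 0.0429). Its paralogue Ring1 was lower, with a log2 fold change of -0.25 (edgeR adjusted p = 0.0217). Ring1 lost this call without WT 2, Eumyc 1 or Eumyc 2. Of 9 germline genes that E2F6 silences in other tissues only 2 were expressed enough to be tested. Tdrkh fell from 7.38 ± 1.24 to 3.90 ± 0.297 CPM, and Stag3 stood at 1.75 ± 0.938 and 3.40 ± 0.696 CPM and did not pass (edgeR adjusted p = 0.0652, and 0.0213 without WT 3).

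**Figure D4:**
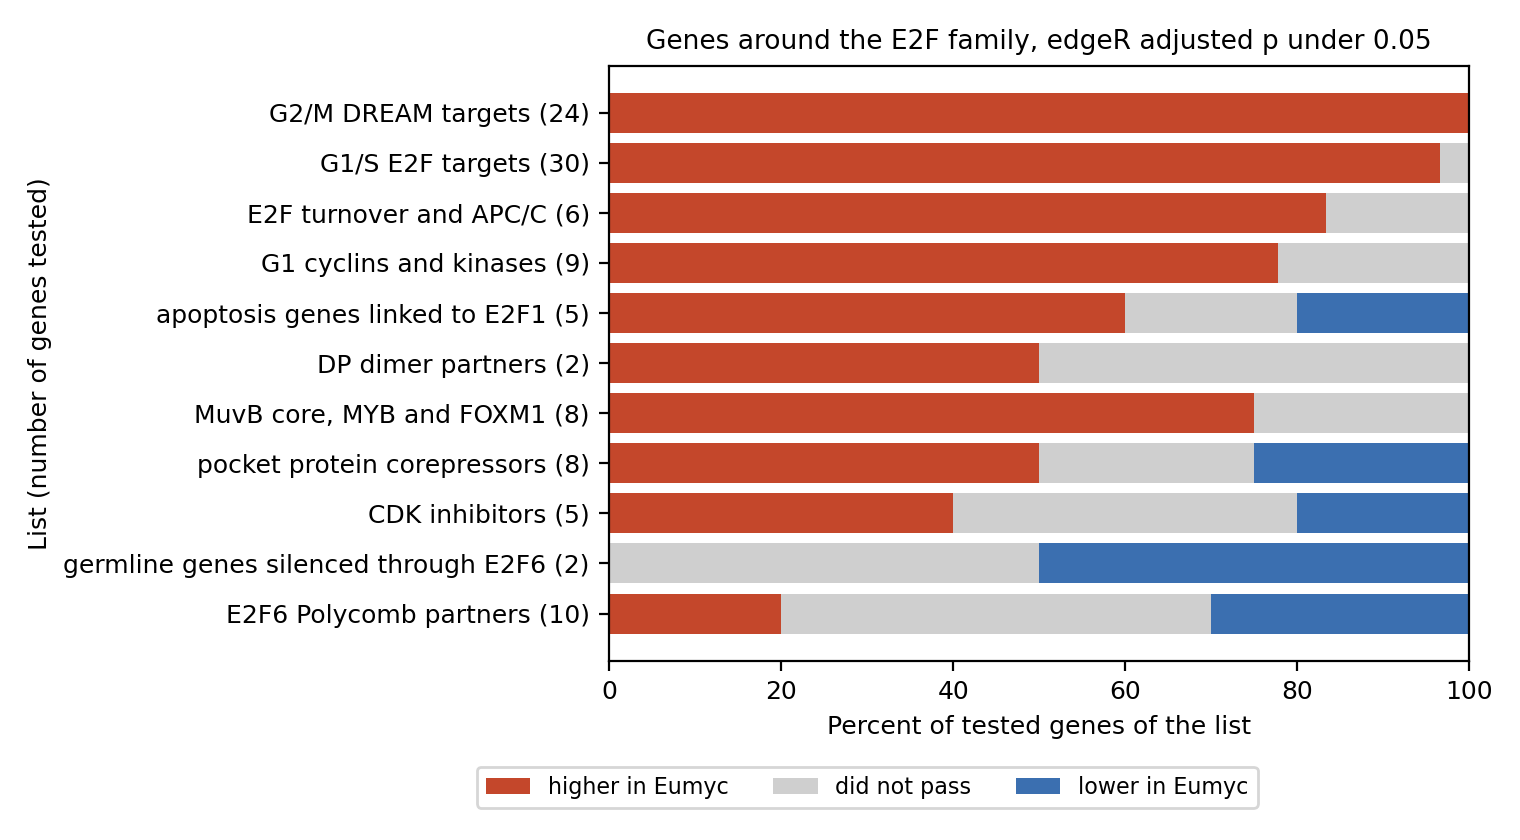
Share of tested genes of each list that were higher (red), lower (blue) or did not pass (grey) in Eumyc at an edgeR adjusted p under 0.05, with the number of tested genes in brackets, ordered by median log2 fold change. The G1/S target list is almost wholly red and the G2/M target list wholly red. The apoptosis genes, the CDK inhibitors, the Polycomb partners of E2F6 and the corepressors are mixed, and the germline genes have no red.

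Genes with the most similar profiles were found by the root mean square distance between log2 CPM values centred on their mean over the 6 libraries, among 8527 named protein-coding genes of at least 10 CPM. The nearest to E2f1 were Cdca7, Mybl2 and Pask, at 0.0872, 0.137 and 0.150 log2 units. The nearest to E2f8 were the cohesin acetyltransferase gene Esco2 at 0.103 and the mitotic genes Birc5 and Aurkb at 0.168 and 0.202. E2f7 was nearest to Dtl, Esco2 and E2f8, at 0.170, 0.182 and 0.226. Those of E2f3 were Gadd45g, Naprt and Srm, at 0.0525 to 0.0847. The falling gene E2f5 was nearest to Kctd6, Scai and Ttc14, E2f6 to Rrp15, Cbx2 and Cep128, and Rbl1 to Fh1, Nup93 and Ndufc2, all at distances from 0.0294 to 0.0631. E2f4 was nearest to Pcmt1, Ddx42 and Acd, and Rbl2 to Fam58b, Snx13 and Nsmce4a. Few genes lay close to the members that changed most, with 2 genes within 0.2 units of E2f8 and 6 of E2f1, against 5235 of the level gene E2f4.

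Most markers of B cells, neutrophils, erythroid cells, and monocytes and macrophages were also higher in Eumyc, beside 25.7% of all tested genes. The part of these cells and of T cells in these results was not tested. The protocol had depleted B cells and gated out cells with the T cell receptor beta chain. B cell markers rose in 9 of 10 cases, with summed values of 16.7 to 19.9 CPM in WT and 52.0 to 57.9 CPM in Eumyc, led by Cd22 at 38.8 ± 2.00 and Cd79b at 5.26 ± 0.481 CPM in Eumyc. Neutrophil markers rose in 9 of 9 tested cases, from sums of 3.28 to 5.85 CPM to 59.6 to 86.0 CPM, led by S100a9 at 19.0 ± 2.37 and Csf3r at 18.7 ± 8.55 CPM. Elane and Ly6g had 0 counts in WT. Erythroid markers rose in 8 of 9 cases, from 14.9 to 33.8 CPM to 61.8 to 73.3 CPM, led by Hbb-bs at 24.1 ± 1.14 and Hba-a1 at 14.5 ± 1.22 CPM.

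Monocyte and macrophage markers rose in 7 of 10 cases, from 946 to 1056 CPM to 1449 to 1990.0 CPM, of which Ccr2 alone was 978 ± 74.2 CPM in Eumyc and Csf1r 226 ± 104 CPM. T cell markers rose in 3 of 10 cases and fell in 1, beside 25.7% of all tested genes higher and 23.1% lower. They summed to 137 to 150.0 CPM in WT and 192 to 229.5 CPM in Eumyc. Of the most abundant in Eumyc, Cd3g rose from 14.9 ± 1.29 to 64.8 ± 4.72 CPM. Cd28 was the 1 that fell, from 83.8 ± 5.63 to 62.2 ± 4.56 CPM (edgeR adjusted p = 0.00240). Cd8b1, 1 of the 3 that rose (edgeR adjusted p = 0.0397), lost its call without WT 1, WT 2 or any Eumyc library. The NK cell markers summed to 13997 to 14285 CPM in WT and 13204 to 14262 CPM in Eumyc. Of these 10 genes 1 rose, 5 fell and 4 did not pass, with a median log2 fold change of -0.21. The most abundant, the granzyme gene Gzma, averaged 3585 ± 211 CPM in WT against 3953 ± 271 CPM in Eumyc and did not pass (edgeR adjusted p = 0.202). The cytokine receptor gene Il2rb was the 1 that rose, from 2640 ± 73.2 to 3043 ± 20.2 CPM (edgeR adjusted p = 0.0321). It lost this call without WT 1, WT 2 or any Eumyc library.

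In the authors' deposited table, which lists all 10 members, the fold changes of E2f1, E2f7 and E2f8 were much smaller. It gives log2 fold changes of 1.06 for E2f1, 1.46 for E2f2, 1.21 for E2f3, 0.98 for E2f7 and 1.14 for E2f8, so that E2f2 and not E2f8 leads the family there. For the other 5 members the authors' deposited table differs from edgeR by at most 0.05 log2 units. The same 8 members have an adjusted p under 0.05 in the authors' deposited table, with 0.380 for E2f4 and 0.206 for Rbl2. DESeq2 run here without a prior gave 2.21, 1.95, 1.33, 3.10 and 3.34 for the same 5 genes, and with a normal prior that shrinks noisy fold changes it gave 1.24, 1.57, 1.26, 1.23 and 1.42. Whether the authors applied such a prior is not given in the sources used here. The order of activators and late members by fold change differed between these methods, and their direction and call did not.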

How the data were processed

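NK cell RNA of 3 WT and 3 Eumyc samples was sequenced from Illumina TruSeq libraries, per the labels' protocols. The authors deposited whole-number counts per gene and their own comparison of the groups, of which the log2 fold changes and adjusted p-values were used. STAR 2.5.2, HTSeq 0.6.1 and DESeq2 1.10.1 with the builds mm10 and GRCm38 are named, per the submitters' processing notes. For the annotation release and strand setting, nothing is given in the sources used here.

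Tests used edgeR 4.0.16 with R 4.3.3 (filterByExpr with a minimum count of 10, TMM, quasi-likelihood fit on the group alone, two-sided), with Benjamini-Hochberg adjustment over 15458 genes and a threshold of 0.05. Standard errors come from the F statistic. Exon lengths are from GENCODE M21 (GRCm38), whose spans of E2f3 and E2f6 differ from the deposited ones, and profiles used log2 of CPM plus 0.5. Marker sums are CPM without TMM. The members and gene lists were chosen with earlier results of these data known. Named genes were all members, up to 3 changed list genes of at least 10 CPM with the largest change, up to 3 genes that did not pass or went against the list, taken by highest mean CPM with no minimum, the 2 most abundant markers of each cell type and the 3 nearest profiles. Tdrkh, Ring1, Cd8b1 and Trp73 were named outside this rule after their values were seen. Of 10 erythroid markers 9 matched, and 2 genes of the apoptosis list are not reported here. Alternatives were DESeq2 1.42.0, limma 3.58.1 voom, other scalings and filters, thinned counts, a replicate block and fits without each library. A DESeq2 prior, another length and the shares without each library were added after seeing the data. The scripts were tested on simulated data.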

Additional observations from a re-analysis of the deposited data

How the results depend on the processing

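The direction and the call of each of the 10 members were the same under all 15 alternatives run on the fold changes. The edgeR adjusted p of E2f1, the closest to the threshold, reached 0.0426 without WT 1. The replicate numbers were not shown to pair the samples, since deviations of same-numbered libraries correlated at 0.029, 0.092 and 0.095 and WT 1 correlated better with another number. With a replicate block 4176 genes were higher and 3684 lower, against 3973 and 3576, and the counts of members stayed 7 and 1. The difference between the medians of activators and of E2f4 to E2f8 ranged from 0.60, with the DESeq2 prior, to 1.56, without WT 3. The number of germline genes that rose was 1 in place of 0 with DESeq2 with or without a prior, voom, no filter and a replicate block, and 0 to 1 when a library was left out. The number of MuvB, MYB and FOXM1 genes that fell was 1 in place of 0 with total counts, voom and the filter of 3 CPM in 3 libraries, and 0 to 1 when a library was left out. The number of corepressor genes that fell was 1 in place of 2 with no filter, 3 with total counts and the filter of 3 CPM in 3 libraries, and 1 to 3 when a library was left out. Per length of the longest transcript, the Eumyc share was 31.9% for the activators in place of 36.2% and 10.8% for E2f7 and E2f8 in place of 8.67%. For these list counts and shares the cause was not tested. Few counts limit the WT values of E2f7 and E2f8 most, with 12 and 27 in WT 2, although it held the most gene counts in WT.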

Other observations

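E2f2 had other nearest profiles than E2f1 and E2f3. They were Cd74, H2-Ab1 and Lilrb4a, genes of antigen presentation and of a leukocyte receptor, at distances of 0.0940, 0.119 and 0.136 log2 units. Cd74 averaged 30.0 CPM in WT against 106 CPM in Eumyc, and H2-Ab1 at 7.42 and 34.9 CPM. Rbl1 contains the processed pseudogene Gm14277 on the opposite strand, which held 19 to 33 counts in WT and 80 to 207 counts in Eumyc, beside 1683 to 10479 counts of Rbl1.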
